A study of Homo sapiens with 4 samples.

Results

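The genes of phase I and phase II drug metabolism were followed across 4 human hepatoma libraries. Members were taken by gene symbol alone. They were the cytochrome P450 genes of the CYP1, CYP2, CYP3A and CYP4 families, the bile acid genes CYP7A1, CYP8B1 and CYP27A1, the alcohol (ADH) and aldehyde (ALDH) dehydrogenases, the flavin-containing monooxygenases (FMO), epoxide hydrolases (EPHX) and carboxylesterases (CES), the sulfotransferases (SULT), the cytosolic and GSTK glutathione S-transferases (GST), and the arylamine N-acetyltransferases NAT1 and NAT2. ALDH1A1 was left out by that choice. Of 16370 genes with counts in any library, 93 were members, 66 of phase I and 27 of phase II, in 17 families. A symbol does not show that an enzyme acts on drugs. Among the ALDH genes, ALDH18A1, ALDH4A1 and ALDH6A1 are known for amino acid synthesis and breakdown, and CYP2B7P1, CYP2D7P1, FMO6P and GSTTP2 carry the names of pseudogenes.

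Hep3B and Huh7 are established liver cancer cell lines and formed the hepatocellular carcinoma (HCC) group. The hepatic cancer stem cell (HCSC) group held Hep3B-C and Huh7-C, stem-like cells that were cultured from these lines. The labels name no drug treatment for any culture. Each culture was measured once, as 1 mRNA library, so each HCSC culture was compared with its own parental line and no value had a replicate check. Differences between culture conditions, library preparations and groups cannot be told apart within a pair.

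Phase I enzymes oxidise, reduce or hydrolyse a compound, and phase II enzymes attach a sulfate, glutathione or acetyl group that makes it easier to excrete. The cytochromes P450 are the main oxidases of phase I in the liver, and many of their genes are switched on by nuclear receptors that sense foreign compounds. Hepatocytes carry most of these enzymes, and hepatoma lines are known to keep only some of them.

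The promoters of 4 members are shown here because their genes gave the widest differences of the set. CYP2B6, FMO1 and ALDH1L1 were called higher in Hep3B-C under every processing alternative tried, and GSTP1 had the highest level per length of any member in both libraries of the Huh7 lineage. The windows run from 250 bases before to 50 bases after the gene start of RefSeq on GRCh38.p14, at chr19:40991032-40991331 (plus strand) for CYP2B6, chr1:171248244-171248543 (plus) for FMO1, chr3:126180537-126180836 (minus) for ALDH1L1 and chr11:67583562-67583861 (plus) for GSTP1. Capitals mark matches, on either strand, to the letters of the antioxidant response element core (TGACNNNGC), the xenobiotic response element core (GCGTG), the TATA box (TATAAA), the forkhead factor core (TGTTTAC) and the CCAAT box (CCAAT).
CYP2B6: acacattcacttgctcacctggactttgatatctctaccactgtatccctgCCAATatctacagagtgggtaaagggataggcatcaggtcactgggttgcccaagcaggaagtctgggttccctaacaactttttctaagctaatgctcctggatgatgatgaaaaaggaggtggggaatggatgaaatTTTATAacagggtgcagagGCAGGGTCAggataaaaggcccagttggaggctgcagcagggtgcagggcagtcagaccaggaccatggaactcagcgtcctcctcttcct
FMO1: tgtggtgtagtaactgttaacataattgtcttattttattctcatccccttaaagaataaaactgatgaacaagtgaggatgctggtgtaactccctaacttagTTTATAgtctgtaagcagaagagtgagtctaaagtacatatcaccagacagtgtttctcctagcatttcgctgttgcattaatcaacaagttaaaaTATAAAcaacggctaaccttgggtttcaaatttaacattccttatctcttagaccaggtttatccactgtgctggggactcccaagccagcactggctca
ALDH1L1: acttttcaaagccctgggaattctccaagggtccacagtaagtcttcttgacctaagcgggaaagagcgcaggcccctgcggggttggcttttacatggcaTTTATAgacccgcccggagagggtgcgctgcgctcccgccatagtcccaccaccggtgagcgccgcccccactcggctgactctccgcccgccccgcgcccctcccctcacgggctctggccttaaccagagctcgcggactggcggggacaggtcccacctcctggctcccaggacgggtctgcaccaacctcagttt
GSTP1: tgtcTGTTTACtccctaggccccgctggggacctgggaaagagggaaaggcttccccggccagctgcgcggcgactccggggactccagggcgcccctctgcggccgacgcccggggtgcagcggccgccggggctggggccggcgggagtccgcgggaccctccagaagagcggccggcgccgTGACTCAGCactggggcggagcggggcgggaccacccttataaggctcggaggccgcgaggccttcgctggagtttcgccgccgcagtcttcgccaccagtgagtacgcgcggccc

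The GSTP1 window held 36 CpG sites at a GC content of 74% and the ALDH1L1 window held 21 at 64.7%. The CYP2B6 and FMO1 windows held 1 and 2 CpG sites, at 50% and 38.3% GC. The median was 11 CpG sites over the 79 members with a RefSeq window and 14 over all 35116 windows of the table. In GSTP1 the antioxidant response element letters read TGACTCAGC and began 66 bases before the start. In CYP2B6 they were met on the opposite strand, 41 bases before the start, and in FMO1 a TATA box began 50 bases before it. Over the 79 members, TATAAA was held by 20 windows (25.3%) against 11.5% of all windows, TGACNNNGC by 11 (13.9%) against 13.3%, GCGTG by 22 (27.8%) against 36.5%, TGTTTAC by 4 (5.06%) against 3.42% and CCAAT by 30 (38.0%) against 34.6%. These are matches of letters only. No binding or methylation was measured.

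Counts on genes ranged from 2896418 in Hep3B to 4641927 in Hep3B-C, with 4537510 in Huh7 and 4333808 in Huh7-C. Levels are given as CPM, each gene's count scaled to a fixed library total, and levels of different genes are compared per kilobase of gene length (RPKM). A gene with 3 counts stood at 1.04 CPM in Hep3B and at 0.646, 0.661 and 0.692 CPM in Hep3B-C, Huh7 and Huh7-C. This was taken as the lowest level each library could show, so a gene at 0 counts may have been present below it. The files of a pair list the genes with a count in either of its cultures. By that measure 86 members were listed in the Hep3B pair, 73 in the Huh7 pair and 66 in both. More than 3 counts were seen for 57 and 62 members in Hep3B and Hep3B-C and for 53 and 49 in Huh7 and Huh7-C, and 21 members had at most 3 counts in all 4 libraries. Among these were CYP2A6, CYP2C8, CYP2C19, CYP3A5, CYP7A1, CYP8B1 and CES1, several of which are leading enzymes of the adult liver. Hepatocyte markers were present throughout: the 8 markers summed to 57854 and 71301 CPM in Hep3B and Hep3B-C, and to 51150 and 26620 CPM in Huh7 and Huh7-C.

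All members together took 0.145% of counts in Hep3B and 0.326% in Hep3B-C, a ratio of 2.24 (95% exact binomial interval 2.16 to 2.32). They took 0.383% in Huh7 and 0.482% in Huh7-C, a ratio of 1.26 (1.23 to 1.28). These intervals, like all intervals given here, cover counting error only. An at-least fold, given where a culture had 0 counts, is the lower limit of the 95% exact binomial interval. The Huh7 ratio rested on GSTP1, which held 36.5% of the members' counts in that pair. Without GSTP1 the ratio was 0.782. Phase I members alone gave a ratio of 2.45 in the Hep3B pair and 0.801 in the Huh7 pair.

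**Figure D1:**
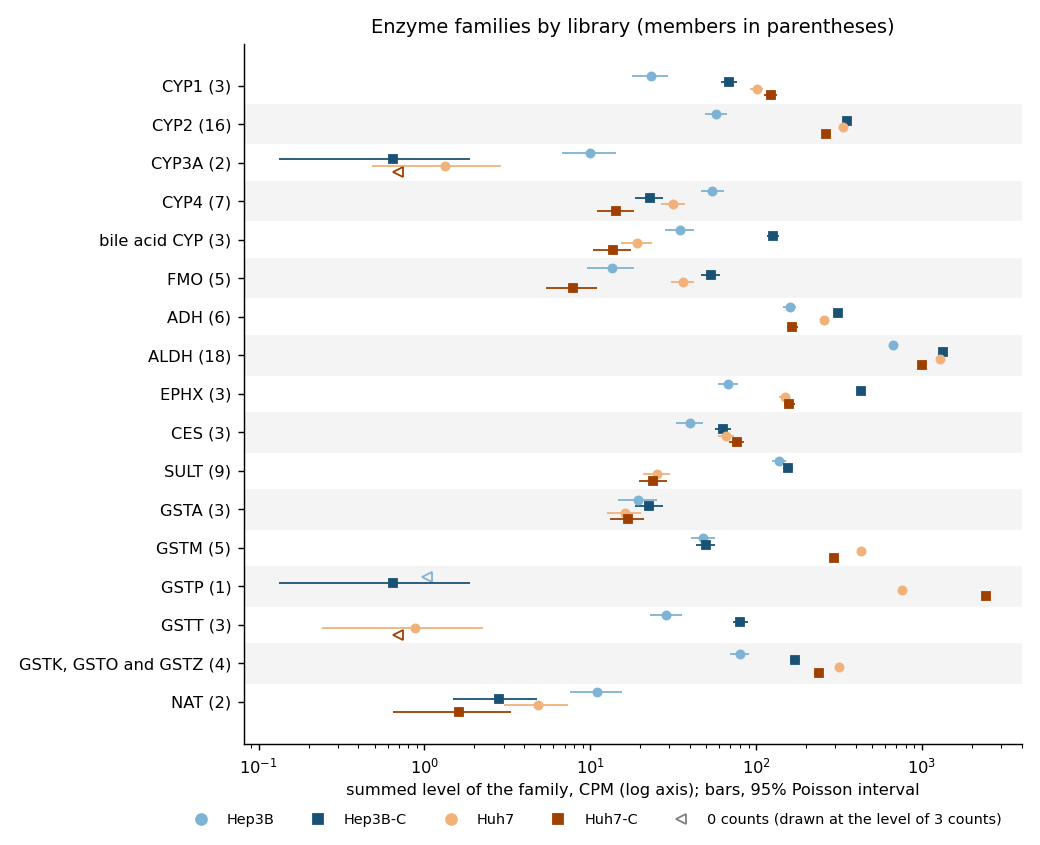
Summed level of each enzyme family in each library, in CPM on a log axis, with 95% Poisson intervals as bars and open triangles for 0 counts (drawn at the level of 3 counts). EPHX summed to 67.7 CPM in Hep3B and 429.6 CPM in Hep3B-C, GSTP was at 0 and 0.646 CPM in the Hep3B lineage and at 762 and 2420.5 CPM in the Huh7 lineage, and CYP3A was highest in Hep3B.

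Each gene was then tested for a difference between the HCSC culture and its parental line. The Audic-Claverie test, a test of a pair of Poisson counts, was used, and a gene was called up- or down-regulated at a false discovery rate (FDR, Benjamini-Hochberg over all genes of the pair) no higher than 0.01 when its log2 fold-change was also 1 or more in size. Such a call exceeds sampling noise between those libraries and says nothing of variation between cultures. Of the 86 members listed in the Hep3B pair, 20 (23.3%) were up-regulated in Hep3B-C, where 13.2% of all genes were. Down-regulated members numbered 7 (8.14%), where 30.4% of all genes were called down. Of the 73 members listed in the Huh7 pair, 2 (2.74%) were up-regulated in Huh7-C and 6 (8.22%) were down-regulated, against 4.19% and 4.15% of all genes.

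The Hep3B pair was not balanced. The median log2 fold-change of all genes with at least 20 counts was -0.55 in that pair and 0.06 in the Huh7 pair. Fold-changes here use library totals, and TMM, DESeq2 size factors and the study's read totals moved all of those of the Hep3B pair upwards by 0.48, 0.53 and 0.77 on the log2 scale. With TMM, 19.7% of all genes were called up and 20.2% down, and the members gave 27 up and 4 down. Of the 60 members with at least 10 counts in the Hep3B pair, 38 (63.3%) were higher in Hep3B-C, against 36.8% of all genes at that depth, and the median log2 fold-change was 0.68 for members and -0.60 for all genes. In the Huh7 pair 19 of 47 members (40.4%) were higher in Huh7-C, against 53.4% of all genes, with medians of -0.35 and 0.06.

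Among the P450 genes, CYP2B6 had the widest difference with counts in both cultures of a pair. Its enzyme oxidises cyclophosphamide, bupropion and efavirenz, and its gene is a classical target of the xenobiotic receptors. CYP2B6 was at 12.8 CPM (37 counts) in Hep3B and 304 CPM (1409 counts) in Hep3B-C, and at 1.10 and 0.461 CPM (5 and 2 counts) in Huh7 and Huh7-C. The log2 fold-change in Hep3B-C was 4.55 ± 0.24 (Poisson SE; Audic-Claverie test, FDR = 7.2e-237), a ratio of 23.8 (95% interval 17.2 to 33.9). At 99.5 RPKM it was the fourth highest member in Hep3B-C. Its near-identical pseudogene CYP2B7P1 had 2 and 15 counts in Hep3B and Hep3B-C, and how reads matching both were assigned is not stated. CYP2B6 alone made 80.3% of the CYP2 counts of the pair: the ratio of the 16 CYP2 genes was 6.15 with it and 1.09 without it.

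Of the other CYP2 genes, CYP2C18 and CYP2S1 differed between the lineages. CYP2C18, a member of the CYP2C cluster, had 2 and 1 counts in Hep3B and Hep3B-C and 804 and 370 in Huh7 and Huh7-C (177 and 85.4 CPM). It was down-regulated in Huh7-C (log2 fold-change -1.05 ± 0.09), just past the threshold. With the trend on gene length removed it was at -0.99, just short of it. CYP2S1, which acts on retinoids and eicosanoids, had 1 and 2 counts in the Hep3B lineage and stood at 87.5 CPM in Huh7 and 155 CPM in Huh7-C, a log2 fold-change of 0.83 that stayed under the threshold. CYP2J2, an epoxygenase of arachidonic acid, was at 18.0, 28.2, 52.0 and 12.9 CPM in Hep3B, Hep3B-C, Huh7 and Huh7-C. Its fall in Huh7-C was called (log2 fold-change -2.00 ± 0.21), and its value of 0.64 in Hep3B-C was not. With TMM, DESeq2 size factors and the study's read totals, CYP2J2 was called up in Hep3B-C, at 1.13, 1.17 and 1.41. CYP2R1, a vitamin D hydroxylase, was down-regulated in Hep3B-C with 33 and 22 counts (log2 fold-change -1.25), as was CYP2U1 with 19 and 8 (log2 fold-change -1.88). Both calls were lost under 3 other scalings of the libraries, TMM, DESeq2 size factors and the study's read totals, where CYP2R1 stood at -0.77, -0.73 and -0.49 and CYP2U1 at -1.40, -1.35 and -1.11. CYP2D6 and CYP2E1, both leading drug oxidases of the liver, had 2 and 3 counts in Hep3B and 15 and 13 in Hep3B-C, with 1 each in Huh7 and none in Huh7-C, and neither was called.

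In the CYP1 family CYP1A1, the dioxin-inducible oxidase of polycyclic hydrocarbons, was at 17.3 and 63.8 CPM in Hep3B and Hep3B-C and at 99.2 and 120.4 CPM in the Huh7 lineage. It was up-regulated in Hep3B-C (log2 fold-change 1.87 ± 0.22), where its level stayed below that of either Huh7 library. CYP27A1, a mitochondrial sterol hydroxylase of bile acid synthesis, rose in Hep3B-C from 33.5 to 125 CPM (log2 fold-change 1.90 ± 0.16) and was at 18.5 and 13.4 CPM in Huh7 and Huh7-C. CYP3A7, the fetal liver form of CYP3A, was near the floor in all but Hep3B. It had 28 counts (9.67 CPM) there and 3 in Hep3B-C, with 6 and 0 in the Huh7 lineage. It was down-regulated in Hep3B-C, 15.0 times lower with a 95% interval of 4.62 to 76.9 times. In Huh7-C the 0 counts put it at least 1.12 times lower, which was not called.

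Of the 7 CYP4 genes, known as fatty acid hydroxylases, the one read as highest per length differed between the HCC and HCSC cultures of both lineages. In the HCSC cultures that order rested on few counts and close values, and it was not tested. CYP4V2 was the highest per length in Hep3B, at 11.1 RPKM, with 151 counts (52.1 CPM), and fell to 44 counts (9.48 CPM) in Hep3B-C, a log2 fold-change of -2.45 ± 0.25. CYP4F2, a vitamin K and fatty acid oxidase, had 0 counts in Hep3B and 25 in Hep3B-C, at least 3.92-fold higher. In Hep3B-C CYP4F2 stood at 2.28 RPKM, against 2.02 RPKM for CYP4V2. CYP4F3, which inactivates leukotriene B4, was the highest per length in Huh7, at 6.71 RPKM, with 91 counts, and fell to 27 in Huh7-C (log2 fold-change -1.67 ± 0.31). CYP4F12 stood at 2.54 RPKM in Huh7-C, against 2.09 RPKM for CYP4F3, with 19 counts after 8 in Huh7, and its log2 fold-change of 1.26 was not called. By counts alone, CYP4V2 was the highest in both libraries of the Hep3B lineage and CYP4F3 in both of the Huh7 lineage. The CYP4F genes are close paralogs, so the split of reads among them is uncertain.

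The FMO genes, which oxidise nitrogen and sulfur atoms of drugs, were called in opposite directions in the pairs through different members. FMO1, known as the fetal liver and kidney form, had 7 counts in Hep3B and 215 in Hep3B-C (2.42 and 46.3 CPM), a log2 fold-change of 4.16 ± 0.54 (Audic-Claverie test, FDR = 5.6e-35). It was not listed in the Huh7 pair, where 3 counts stand at 0.661 and 0.692 CPM. FMO5 had 19, 13, 153 and 30 counts in Hep3B, Hep3B-C, Huh7 and Huh7-C. It was down-regulated in Huh7-C (log2 fold-change -2.27 ± 0.29), the largest fall of a member in that pair among those with at least 50 counts, and its value of -1.21 in Hep3B-C did not pass. The summed FMO level was 3.95 times as high in Hep3B-C as in Hep3B, and 0.624 times as high without FMO1, which held 77.6% of the family's counts in that pair. Few counts remained without FMO1, mainly those of FMO5 and of FMO4, which had 10 and 19 counts in Hep3B and Hep3B-C. The summed FMO level was 0.217 times as high in Huh7-C as in Huh7.

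Among the 6 ADH genes, ADH5, the ubiquitous glutathione-dependent formaldehyde dehydrogenase, was at 113, 138, 149 and 107 CPM in Hep3B, Hep3B-C, Huh7 and Huh7-C and was not called in either pair. The liver forms ADH4 and ADH6 were up-regulated in Hep3B-C. ADH6 went from 37.6 to 153 CPM (log2 fold-change 2.02 ± 0.15) and ADH4 from 21 to 86 counts (log2 fold-change 1.33 ± 0.35). ADH6 was at 102 and 55.6 CPM in Huh7 and Huh7-C, and ADH4 at 25 and 11 counts, with log2 fold-changes of -0.88 and -1.08 that were not called. ADH1A, ADH1C and ADH7 had at most 4 counts anywhere.

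The 18 ALDH genes held more counts than any other family in each library except Huh7-C, where GSTP1 alone exceeded them. Of the 16 listed in the Hep3B pair, 5 were up-regulated and none was down-regulated, where 13.2% and 30.4% of all genes were. ALDH4A1, the mitochondrial enzyme of proline breakdown, rose from 79.8 to 490.1 CPM (log2 fold-change 2.62 ± 0.10) and was at 58.8 and 33.7 CPM in Huh7 and Huh7-C. ALDH16A1, an unusual member thought to lack activity in mammals, rose from 27.3 to 120.4 CPM (log2 fold-change 2.13 ± 0.17) to the level it had in Huh7 (117 CPM) and Huh7-C (119 CPM). ALDH1L1, a folate enzyme that oxidises 10-formyltetrahydrofolate, had 0 counts in Hep3B and 106 (22.8 CPM) in Hep3B-C, at least 17.6-fold higher. ALDH1L1 was not listed in the Huh7 pair. ALDH6A1 and the drug and perfume aldehyde oxidase ALDH3A1 were the remaining calls, with 43 and 155 counts and with 0 and 13 counts.

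ALDH3B1, which oxidises lipid aldehydes, was the one ALDH gene called in the Huh7 pair. It had 40 counts in Huh7 and 110 in Huh7-C (log2 fold-change 1.51 ± 0.27), and 30 and 59 counts in Hep3B and Hep3B-C with a log2 fold-change of 0.28. ALDH18A1, which starts proline synthesis, was the highest ALDH gene per length in Hep3B, Huh7 and Huh7-C at 52.4, 170 and 96.7 RPKM. Its log2 fold-changes of 0.74 in Hep3B-C and -0.82 in Huh7-C were under the threshold. ALDH2, the acetaldehyde oxidase, was at 78.4, 68.1, 198 and 143 CPM in Hep3B, Hep3B-C, Huh7 and Huh7-C and was not called in either pair.

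The epoxide hydrolases, which open reactive epoxides, differed mainly through EPHX1, the microsomal form. EPHX1 was at 41.1 CPM in Hep3B and 375 CPM in Hep3B-C, a log2 fold-change of 3.18 ± 0.14 (Audic-Claverie test, FDR = 8.5e-224), and at 106 and 124 CPM in Huh7 and Huh7-C. At 205 RPKM it was the highest of all members in Hep3B-C, where in Hep3B it reached 22.5 RPKM. EPHX2, the soluble form, was also up-regulated in Hep3B-C, with 71 and 246 counts. EPHX4 was down-regulated in Huh7-C, with 76 and 29 counts, and had 6 and 7 counts in Hep3B and Hep3B-C. Of the carboxylesterases, CES2, which activates irinotecan, was at 28.3, 56.4, 61.9 and 71.1 CPM in Hep3B, Hep3B-C, Huh7 and Huh7-C. Its log2 fold-change of 0.99 in Hep3B-C lay just under the threshold of 1.

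**Figure D2:**
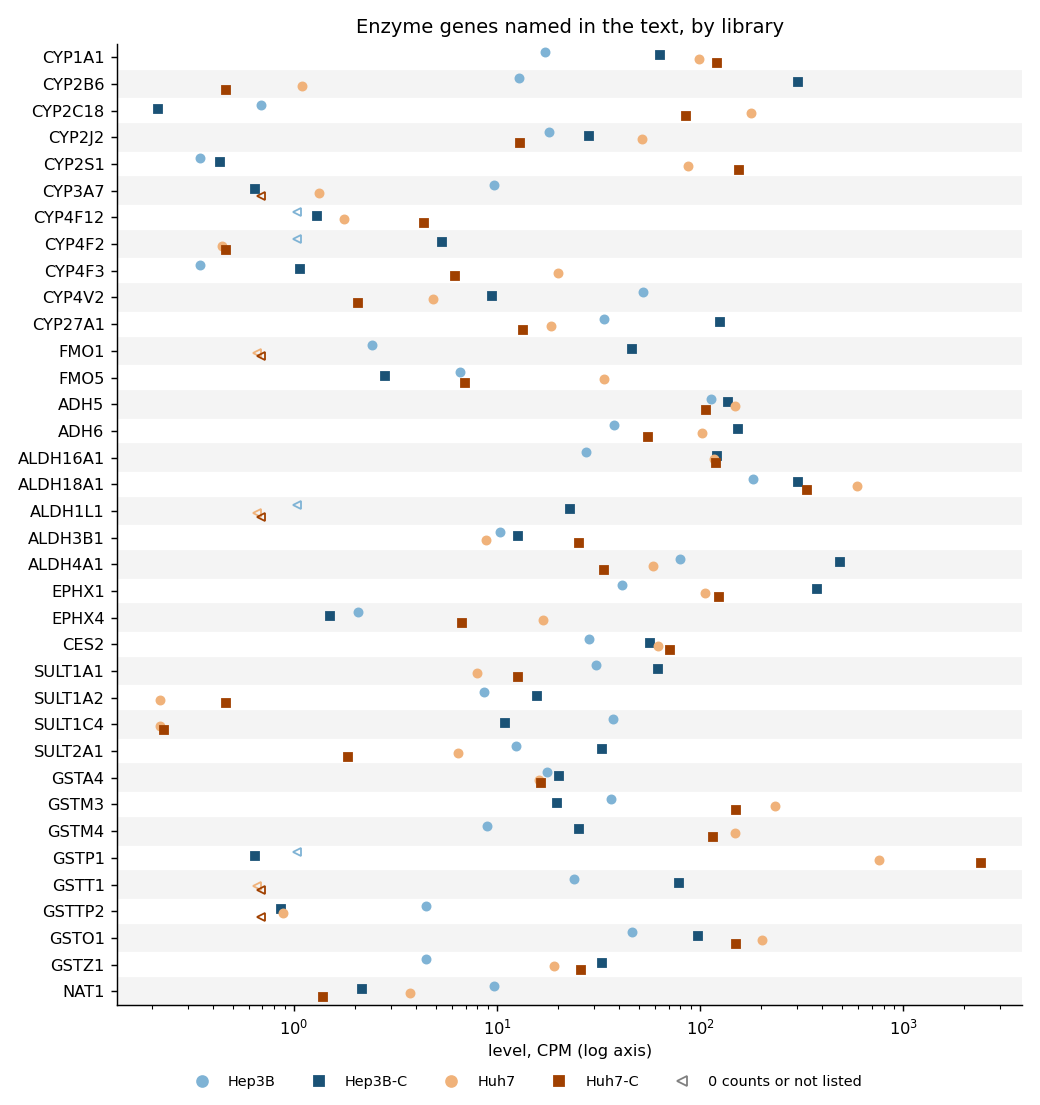
Level of each named member in each library, in CPM on a log axis, with circles for HCC lines, squares for HCSC cultures and open triangles for genes at 0 counts or not listed. CYP2B6, FMO1, ALDH1L1 and EPHX1 are far higher in Hep3B-C than in Hep3B, while CYP2C18, CYP2S1 and GSTP1 separate the Huh7 lineage from the Hep3B lineage.

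Among phase II genes the sulfotransferases were carried mostly by the Hep3B lineage, with summed levels of 137 and 156 CPM against 25.1 and 24.0 CPM in Huh7 and Huh7-C. SULT1A1, the main phenol sulfotransferase, was at 30.7 and 61.8 CPM in the Hep3B lineage and at 7.93 and 12.7 CPM in Huh7 and Huh7-C, and its call in Hep3B-C rested on a log2 fold-change of 1.003 ± 0.175. Its close paralog SULT1A2 had 25, 73, 1 and 2 counts, and reads may be split between them. SULT1C4, a fetal form, fell from 37.3 CPM in Hep3B to 10.99 CPM in Hep3B-C (log2 fold-change -1.76 ± 0.24) and had 1 count in each Huh7 library. Its call in Hep3B-C was lost with the study's read totals, at -0.99.

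SULT2A1, which sulfates bile acids and dehydroepiandrosterone, was the one member called in opposite directions with library totals. It had 36 counts in Hep3B and 152 in Hep3B-C (12.4 and 32.7 CPM), a log2 fold-change of 1.38 ± 0.27 (Audic-Claverie test, FDR = 5.4e-08). In Huh7 and Huh7-C it had 29 and 8 counts (6.39 and 1.85 CPM), a log2 fold-change of -1.73 ± 0.56 (Audic-Claverie test, FDR = 0.0032). The pairs differed by 3.11 on the log2 scale, and this difference was not itself tested. With the length trend removed, SULT2A1 stood at 0.86 in Hep3B-C and was no longer called, while it was called at 1.87 with TMM library sizes and at 1.77 with GC and length trends removed.

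Glutathione S-transferases conjugate electrophiles to glutathione, and their classes differed by lineage. GSTP1, the pi form that is often raised in tumours, had 0 and 3 counts in Hep3B and Hep3B-C, against 3459 in Huh7 and 10490 in Huh7-C. It was up-regulated in Huh7-C, with a log2 fold-change of 1.67 ± 0.03 and a ratio of 3.18 (95% interval 3.06 to 3.30). Per length it was the highest member in both libraries of that lineage, at 796 and 2527 RPKM, where the next member, GSTO1, had 257 and 192 RPKM. A difference of GSTP1 within the Hep3B pair was not detectable at these counts.

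The mu class was higher in the Huh7 lineage as well, at 426 and 293 CPM in Huh7 and Huh7-C against 48.0 and 49.5 CPM in Hep3B and Hep3B-C. GSTM3 was at 36.3, 19.8, 233 and 151 CPM and GSTM4 at 8.98, 25.4, 148 and 115 CPM in Hep3B, Hep3B-C, Huh7 and Huh7-C. GSTM4 was up-regulated in Hep3B-C (log2 fold-change 1.48 ± 0.31), while GSTM3 had a value of -0.87 there. The GSTM genes are a cluster of similar sequences, and GSTM1, which many people lack, was listed in the Huh7 pair alone with 7 counts in each library. GSTT1 is also deleted in many people. It had 69 counts in Hep3B and 367 in Hep3B-C (log2 fold-change 1.72 ± 0.19) and was not listed in the Huh7 pair. Whether the gene is present in these lines was not tested. GSTTP2, a theta class pseudogene, had 13 and 4 counts in the Hep3B lineage and 4 and 0 in the Huh7 lineage, and was called down in Hep3B-C. This GSTTP2 call was lost with TMM, DESeq2 size factors and the study's read totals.

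GSTO1, of the omega class, was among the highest 3 members per length in all 4 libraries, at 58.5, 124, 257 and 192 RPKM in Hep3B, Hep3B-C, Huh7 and Huh7-C. Its call in Hep3B-C (log2 fold-change 1.08 ± 0.14) was lost when the trend with gene length was removed, which put it at -0.0023. GSTZ1, an enzyme of tyrosine breakdown that also acts on dichloroacetate, had 13 counts in Hep3B and 153 in Hep3B-C (log2 fold-change 2.83 ± 0.41), and 87 and 112 counts in Huh7 and Huh7-C. GSTA4, which detoxifies hydroxynonenal, was the alpha form of highest level and lay between 16.1 and 20.25 CPM in all 4 libraries. NAT1, an arylamine acetyltransferase, was down-regulated in Hep3B-C with 28 and 10 counts (log2 fold-change -2.12 ± 0.52). That call was lost with the study's read totals and with GC and length trends removed, where NAT1 stood at -1.35 and -1.33. In Huh7 and Huh7-C NAT1 had 17 and 6 counts, a log2 fold-change of -1.36 that was not called.

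Calls in both pairs were set side by side for the 66 members listed in both. No member was called up in both and none was called down in both, where 0.568% and 1.49% of the 13917 shared genes were. Opposite calls were 1 of 66 (1.52%), SULT2A1, against 2.45% of shared genes. The values themselves were then placed against the medians of all genes. Of 39 members reaching 10 counts within each pair, 19 (48.7%) lay above the median in the Hep3B pair and below it in the Huh7 pair, against 26.3% of 11151 genes. Above both medians were 11 (28.2%, against 23.9%), below both were 7 (17.9%, against 23.5%), and 2 (5.13%, against 26.3%) lay below in the Hep3B pair and above in the Huh7 pair.

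**Figure D3:**
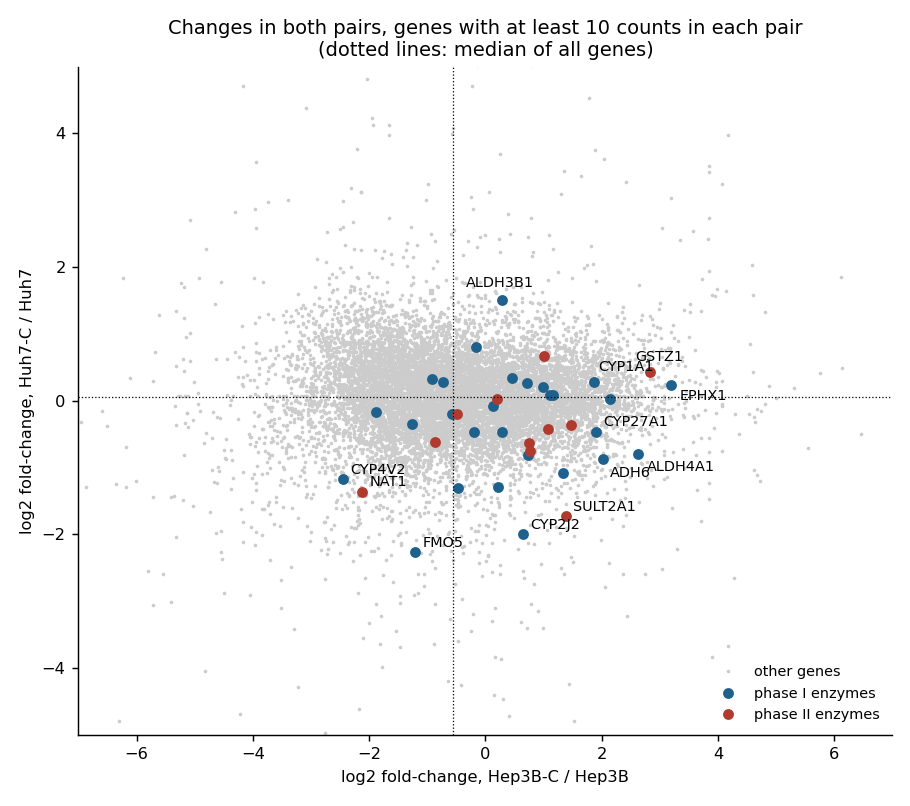
Log2 fold-change in the Huh7 pair against that in the Hep3B pair for genes with at least 10 counts in each, with phase I members in blue, phase II members in red, other genes in grey and the medians of all genes as dotted lines at -0.55 and 0.06. Of 39 members, 19 lie to the right of the vertical line and below the horizontal line, among them ALDH4A1, ADH6 and SULT2A1.

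Levels were also compared between lineages, as a description with no test. A gene was counted when both libraries of a lineage were at least 2-fold above both of the other. This held for 11 members (11.8%) in favour of the Hep3B lineage, against 5.73% of all genes, and for 10 members (10.8%) in favour of the Huh7 lineage, against 6.21%. The Hep3B set was ALDH8A1, CYP1A2, CYP2B6, FMO1, GSTO2, GSTT1, SULT1A1, SULT1A2, SULT1C2, SULT1C4 and SULT1E1, of which 5 are sulfotransferases. The Huh7 set was ALDH1L2, CYP2C18, CYP2S1, CYP4F3, EPHX4, GSTM2, GSTM3, GSTM4, GSTP1 and SULT2B1, of which 4 are glutathione S-transferases. SULT1C2 had 117 and 133 counts in Hep3B and Hep3B-C and 23 and 19 in Huh7 and Huh7-C. ALDH8A1 had 34 and 40 counts in the Hep3B lineage and 1 and 0 in the Huh7 lineage.

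Fold-changes in the Hep3B pair moved with the base composition of the transcripts. Across 12228 genes with at least 10 counts the Spearman correlation of log2 fold-change with GC content was 0.61, and with gene length it was -0.41. Across 58 members these were 0.53 and -0.19. In the Huh7 pair the correlation with GC content was -0.06 over 11836 genes and 0.46 over 47 members. With gene length it was 0.29 over those genes, the reverse sign of the Hep3B pair, and 0.025 over those members. These correlations are across genes of the same libraries, which are not independent. Among the 20 members called up in Hep3B-C, those with a GC value, all but GSTT1, had a median of 53.1%, against 59.2% for all genes called up. Among the 7 called down, those with a GC value, all but GSTTP2, had a median of 42.3%. Below 45% GC, where 1.21% of all genes were called up in Hep3B-C, 4 of 21 members (19.0%) were, namely ADH4, ADH6, FMO1 and SULT2A1. At 60% GC and above, 4 of 7 members (57.1%) and 44.7% of all genes were called up. The part of base composition in the remaining calls was not tested gene by gene.

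**Figure D4:**
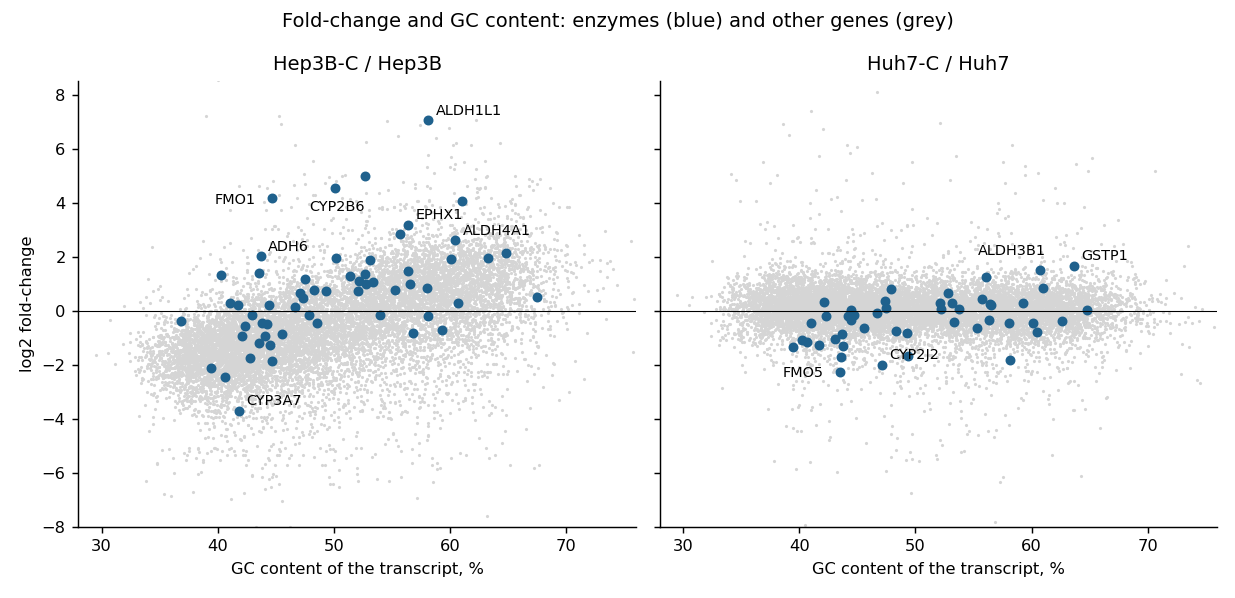
Log2 fold-change against the GC content of the transcript, in percent, for genes with at least 10 counts in the Hep3B pair (left) and the Huh7 pair (right), with members in blue and other genes in grey. The grey cloud rises with GC content on the left (Spearman correlation 0.61) and not on the right (-0.06), and FMO1, CYP2B6 and ADH6 lie above the cloud at their GC content.

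With trends on GC content and gene length removed, 14 members (16.3%) were called up in Hep3B-C, 13 of them among the 20, against 5.16% of all genes. The new up call was that of ADH5, at 1.11. Down calls were 8 (9.30%), 5 of them among the 7, against 21.4% of all genes. The down calls of CYP2U1 and NAT1 were lost, and ALDH2, CES3 and GSTO2 were newly called down, at -1.29, -1.53 and -2.15. CYP2B6, FMO1 and ADH6 then had log2 fold-changes of 4.63, 4.49 and 2.69, and ALDH1L1, at 0 counts in Hep3B, was still called. EPHX1 and ALDH4A1 dropped to 2.04 and 1.64 and were still called. The calls of ALDH16A1, ALDH3A1, CYP27A1, EPHX2, GSTM4, GSTO1 and SULT1A1 were lost. GSTT1 and GSTTP2 have no GC value, so only the length term of that joint fit was applied to them. GSTT1 was called at 1.01 there and was at 0.72, not called, with the length trend alone removed. At an assumed biological coefficient of variation (BCV, the relative spread between samples) of 0.4, ALDH1L1, CYP2B6 and FMO1 were still called in Hep3B-C and no member in Huh7-C. These were 3.49% of members, against 0.401% of all genes called up in Hep3B-C at that BCV.

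**Figure D5:**
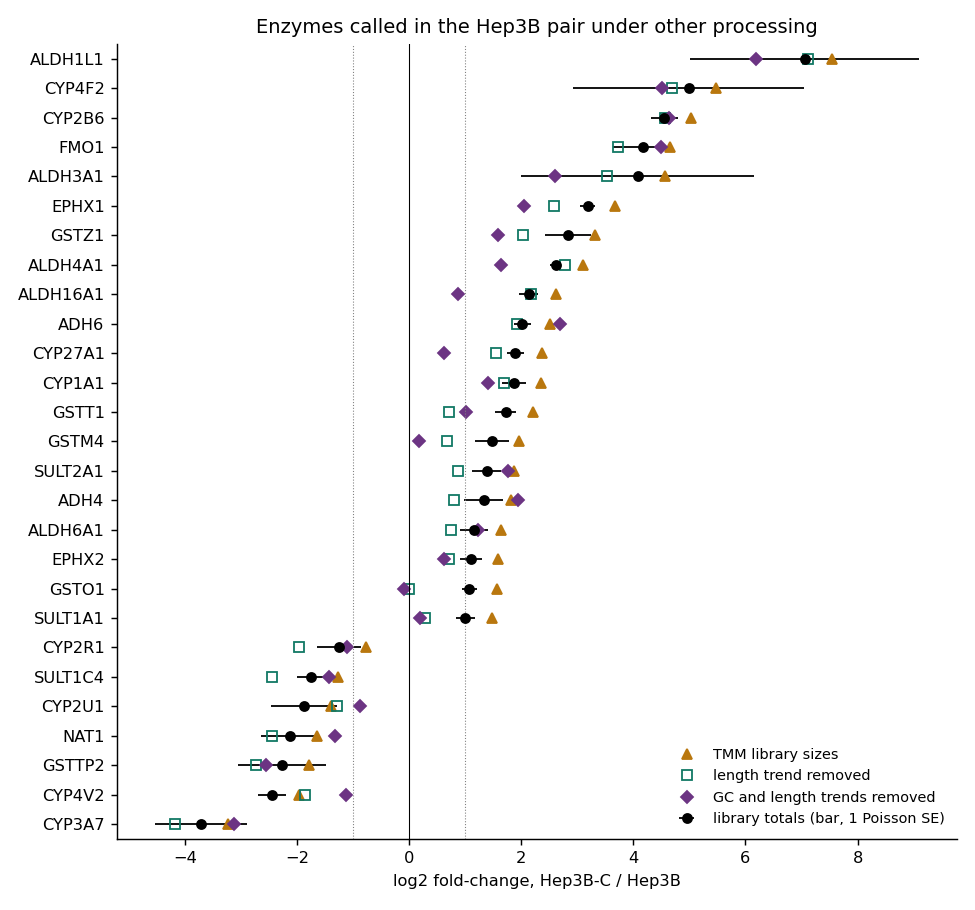
Log2 fold-change (Hep3B-C over Hep3B) of the 27 members called in that pair, with library totals (black, bar of 1 Poisson SE), TMM library sizes, the length trend removed, or GC and length trends removed. TMM moves every value upwards by 0.48, while GSTO1 falls to about 0 once the length trend is removed and CYP2B6 and FMO1 stay above 3. Values of ALDH1L1, ALDH3A1 and CYP4F2, at 0 counts in Hep3B, depend on the 0.5 added to each count.

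Finally HCSC and HCC were compared over all 4 libraries with edgeR, with the line of origin as a block. A fit of that kind has 1 residual degree of freedom. No member of 53 tested was called at an FDR of at most 0.05, where 0.0342% and 0.0428% of 11691 genes were called up and down. At an unadjusted p under 0.05 there were 2 members (3.77%), FMO1 and CYP2B6, against 3.18% of all genes. FMO1, taken as 0 counts in the Huh7 pair, had the lowest adjusted p of a member (edgeR, 0.43). DESeq2 called none of 37 members, where it called 15 genes in all. It had 4 members at an unadjusted p under 0.05. The share of all genes at that level was not counted, so nothing is read from it.

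The partners, regulators and other enzymes of the pathway were read from 6 lists of 59 genes that hold no member. POR, AHR, NR1I2 and NR1I3 are named from them after their values had been seen. In the Hep3B pair 57 were listed, 8 up-regulated and 11 down-regulated, where 13.2% and 30.4% of all genes were. In the Huh7 pair 55 were listed, 3 up-regulated and 9 down-regulated, against 4.19% and 4.15% of all genes. NQO1, a quinone reductase, was up-regulated in both HCSC cultures, with 48 and 1033 counts in Hep3B and Hep3B-C (log2 fold-change 3.73 ± 0.21) and 191 and 648 counts in Huh7 and Huh7-C (log2 fold-change 1.83 ± 0.12). NQO2, its relative, was up-regulated in Hep3B-C, with 39 and 341 counts. POR, which passes electrons to the microsomal P450 enzymes, rose in Hep3B-C from 78.4 to 266 CPM and was at 208 and 189 CPM in Huh7 and Huh7-C. The POR value in the Hep3B pair fell from 1.76 to 0.46 with GC and length trends removed.

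Among regulators, the liver factors ONECUT1 and NR1H4 (the bile acid receptor) were down-regulated in Hep3B-C, with 269 and 22 counts and with 165 and 16 counts. The receptors NR1I2 and NR1I3, known as activators of CYP2B6, were near the floor in the Hep3B lineage, with 0 and 4 counts and with 5 and 5 counts in Hep3B and Hep3B-C. NR1I3 had 19 counts in Huh7 and 0 in Huh7-C, where it was called down, at least 4.46 times lower. AHR, the receptor known to induce CYP1A1, fell in Hep3B-C from 261 to 41.4 CPM (log2 fold-change -2.65, and -1.18 with GC and length trends removed). It was at 68.8 and 134.5 CPM in Huh7 and Huh7-C, a log2 fold-change of 0.97 that was not called. In the Huh7 pair the largest falls among the listed genes with at least 50 counts were those of BAAT, the bile acid conjugating enzyme, with 75 and 1 counts, and of DPYD, which breaks down fluorouracil, with 63 and 12 counts. BAAT was 71.6 times lower in Huh7-C, with a 95% interval of 12.5 to 2867 times. DPYD was down-regulated in Hep3B-C as well, with 26 and 7 counts (log2 fold-change -2.50, and -1.24 with GC and length trends removed).

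Markers of cell types were called as well. Of the 8 hepatocyte markers 3 were called up and 2 down in Hep3B-C, and 1 up and 4 down in Huh7-C. Of the 4 stem cell surface markers, the 2 listed in the Hep3B pair were both called down in Hep3B-C (summed level 886 and 254 CPM), and 1 of 4 was called down in Huh7-C (107 and 74.3 CPM). Bile duct markers summed to 280 and 94.6 CPM in Hep3B and Hep3B-C and to 58.8 and 109.6 CPM in Huh7 and Huh7-C, with 2 of 3 called down and 1 of 4 called up. Fibroblast markers summed to 4.83 and 1.08 CPM in Hep3B and Hep3B-C, with 1 of 4 called down, and to 4.19 and 15.0 CPM in Huh7 and Huh7-C, where COL3A1, with 0 and 58 counts, was called up. Endothelial markers summed to 2.76 and 2.80 CPM in the Hep3B pair and to 3.97 and 21.5 CPM in the Huh7 pair, where PECAM1, with 17 and 93 counts, was called up. Of the leukocyte list CD68 alone was listed and was called up in Hep3B-C, at 99.8, 270.2, 134 and 99.9 CPM in Hep3B, Hep3B-C, Huh7 and Huh7-C. Their part in the results on the enzymes was not tested.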

How the data were processed

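The mRNA of 4 cultures was read on the Illumina Genome Analyzer II platform. Adapters and reads of low quality were dropped by the authors, who aligned the rest to NCBI Build 36.1 with NextGENe and deposited raw read counts for each gene. The NextGENe version, the annotation and the handling of reads with several matches are not given in the sources used here, so the split among close paralogs is uncertain. Gene length was deposited with the counts and served for RPKM. Depth ran from 2896418 to 4641927 counts, and a gene with 3 counts marked the floor.

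The members and the lists of other genes were chosen with earlier results of these data known. Groups and parental lines came from the sample labels. Within a pair, counts were compared with the Audic-Claverie test (tail doubled, Benjamini-Hochberg over all genes, FDR at most 0.01, absolute log2 fold-change at least 1). Fold-changes added 0.5 to each count and used total gene counts as library sizes, and SEs are those of Poisson counts. Where a culture had 0 counts, the fold was bounded by setting it to 3 counts in that library, since the fitted value depends on the 0.5 added. Over all 4 libraries edgeR 4.0.16 was used (quasi-likelihood test, TMM, filterByExpr, FDR at most 0.05, genes absent from a pair taken as 0), with the parental line as a block because both cultures of a line share their origin. Deviations from the group means of cultures from the same line had a correlation of 0.52. HCC and HCSC each held 2 libraries. With the block, the edgeR p-values set the HCSC/HCC change against how far it differed between the lines, and cover no other cultures. The Audic-Claverie p-values cover counting noise alone.

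Named members were, in each family, the highest per length in each library, those called in opposite directions, the 8 called up and 8 called down most strongly in a pair with at least 50 counts in 1 library, and those with fewer than 3 counts in a lineage and at least 50 in the other. From the other lists the 2 most changed in each direction in each pair with at least 50 counts were named. Further members are named for their known role, after their values were seen. GC content came from GENCODE 29 transcripts (91 of 93 members) and promoter windows from RefSeq on GRCh38.p14 (79 of 93). Neither is on the build of the alignment, so both serve as annotation. Trends were removed with lowess (span 0.3). The calculations were tested on simulated counts. Alternatives were TMM, DESeq2 1.42.0 size factors, the study's total reads, 5 added to each count, a minimum of 10 counts, an exact binomial test, an assumed BCV of 0.4, and removal of length or of GC and length trends. Analyses ran in R 4.3.3 and in Python 3.11.15 with scipy 1.17.1, statsmodels 0.14.6, numpy 2.4.6 and pandas 2.3.3.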

Additional observations from a re-analysis of the deposited data

Results flagged for a closer look

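SULT2A1 moved in opposite directions in the pairs: its log2 fold-change was 1.38 in the Hep3B pair and -1.73 in the Huh7 pair, and these differ by 3.11. With 1 library per culture the difference was not tested, and the Huh7 pair holds 29 and 8 counts of the gene.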

How the results depend on the processing

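Of 610 values of named members under an alternative, 531 kept their direction and their side of the threshold, 43 lost it, 16 gained it and 20 turned sign. The count filter and the exact binomial test changed no call of a named member. In the Hep3B pair, called-down members numbered 4 (4.65%) with TMM, 4 (4.65%) with DESeq2 size factors and 2 (2.33%) with the study's read totals. Of all genes 20.2%, 19.5% and 15.1% were called down under these scalings. Called-up members numbered 32 (37.2%) with the read totals and 12 (14.0%) with the length trend removed, against 24.2% and 10.5% of all genes. Members called in opposite directions were 2, SULT2A1 and CYP2J2, with TMM, with DESeq2 size factors and with the read totals. They were 0 with the length trend removed or a BCV of 0.4. With the read totals 1 member, ALDH3B1, was up in both pairs. A BCV of 0.4 gave 3 up and 0 down in the Hep3B pair, against 0.401% and 1.09% of all genes. In the Huh7 pair it gave 0 up and 0 down, against 0.0878% and 0.081% of all genes. The summed HCSC/HCC ratio of all members in the Hep3B pair was 3.13 with TMM, 3.23 with DESeq2 size factors, 3.81 with the read totals and 2.01 without ALDH4A1. In the Huh7 pair it was 1.22, 1.20 and 1.23 under the same scalings, 1.66 per kilobase and 0.782 without GSTP1. Leaving out the member with the most counts turned the ratio to 0.771 (CYP1), 5.53 (CYP4), 0.624 (bile acid CYP), 0.624 (FMO), 0.586 (CES), 0.880 (SULT) and 0.267 (GSTT) in the Hep3B pair, and to 1.16 (CYP2), 0.728 (phase II) and 0.801 (EPHX, whose main ratio of 1.07 had a 95% interval of 0.957 to 1.19) in the Huh7 pair. None of these ratios without the top member carries an interval, and some rest on few counts. In Hep3B and Hep3B-C, CYP7A1 had 0 and 1 counts, CYP8B1 3 and 2, FMO4 10 and 19, FMO5 19 and 13, and CES3 32 and 31. The median log2 fold-change of all genes with at least 20 counts was -0.55 in that pair. Such a ratio below 1 therefore does not show that the rest of a family fell. The cause of the shifts under these alternatives was not tested.

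Log2 fold-changes that turned sign in the Hep3B pair were those of ALDH3B1 (-0.84 with GC and length trends removed), CYP2S1 (-0.46 with 5 added, -0.13 with length and -1.16 with GC and length removed), EPHX4 (0.0091 with TMM, 0.055 with DESeq2 size factors, 0.29 with the read totals), GSTA4 (-0.65 with length removed), GSTO1 (-0.0023 with length and -0.089 with GC and length removed), GSTP1 (-0.0024 with 5 added) and SULT1A2 (-0.011 with length and -0.67 with GC and length removed). In the Huh7 pair ALDH16A1 stood at -0.014, -0.037 and -0.011, and GSTA4 at -0.015, -0.039 and -0.012, with TMM, DESeq2 size factors and the read totals, and ALDH16A1 at -0.071 with GC and length removed. Of these only GSTO1 had been called.

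Over all 4 libraries, edgeR without the parental line as a block called 0 members up and 0 down, as with the block. Removal of GC and length trends with the block called 2 up, CYP2B6 and FMO1. That setting called 95 genes in all, against 9 in the main fit, and its common BCV was 0.36 against 0.51. Leaving out each library in turn, without the block, gave 0 to 1 members up, CYP2B6 being called without Huh7-C, and 0 down. Without Huh7-C the HCSC arm is Hep3B-C alone, which is assumed to vary like the HCC lines, and CYP2B6 had 5 and 2 counts in Huh7 and Huh7-C. With the block no residual degree of freedom would be left. Depth limits the genes with few counts, where counts in a pair cannot show a change.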
